A study of Mus musculus with 27 samples.

Results

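Prr5l, Wfdc18, Aoc1, Prelp, Lbp, Calcb, Plekhb1, Nts, Rassf9 and Ccdc33 are 10 of the 51906 gene symbols in the bulk RNA-seq table of this study. They were chosen by their measured counts, near 0 in cultures in serum (FBS) and far higher in the serum-free medium atRA+PKCi, over all 4 groups of that table. All-trans retinoic acid (atRA) is the active form of vitamin A, and PKCi is an inhibitor of protein kinase C. The rise between the media is what chose the genes, and the counts of both genotypes took part in the choice, so the values of the 10 genes in the bulk libraries, between media and between genotypes, are given as a description, with no test. A rule of at most 3 counts over the wild-type FBS libraries and at least 80 counts over the 2 atRA+PKCi libraries of 1 genotype was met by 168 genes, all 10 among them. Ranked by the higher atRA+PKCi group mean, they took places 1 (Prr5l) to 62 (Plekhb1) of those 168, so the set is a selection and not the top of a ranking.

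Hair follicle stem cells (HFSCs) are the epithelial cells that rebuild the hair follicle in each hair cycle and help to repair the epidermis after a wound. Retinoic acid enters the nucleus and binds RAR receptors, which pair with RXR partners such as Rxra on DNA and change transcription of their target genes. Among the 10 genes, Calcb and Nts encode secreted peptides, Wfdc18, Prelp, Lbp and Aoc1 encode proteins that leave the cell, and Prr5l, Plekhb1, Rassf9 and Ccdc33 encode proteins that stay inside it or at its membranes.

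The bulk RNA-seq came from HFSC lines purified from telogen back skin at postnatal day 55, kept in 3D cultures in FBS medium or in atRA+PKCi, with 2 mice per genotype and 2 libraries in each of 4 groups. Wild-type lines were set against lines labelled Rxra cKO, which carried Sox9-CreER, floxed Rxra and the R26-YFP reporter, so that recombination followed the Sox9 promoter and tamoxifen. All lines had been set up on mitomycin-inactivated feeder cells. Single cell RNA-seq covered back skin sorted as CD45-CD31-CD140a-CD117- from 2 mice in full anagen at postnatal day 32 (AnaVI) and pooled, hashtagged cultures of HFSCs from the same mice, in which every condition but FBS and the serum-free supplement B-27 also held atRA+PKCi.

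Bulk libraries held 25150300 to 35879800 estimated counts, of which the top 10 genes made up 10.9% to 13.1%, and levels are given as CPM, counts scaled to a common library size. In FBS, Rxra stood at 149 and 122 CPM in the wild-type and at 97.2 and 95.7 CPM in the libraries labelled Rxra cKO, a log2 difference of -0.49 (SE 0.0917, adjusted p = 0.00264, edgeR quasi-likelihood test). In atRA+PKCi the levels were 147 and 143 CPM against 148 and 145 CPM, and no loss was detected (log2 difference 0.01, SE 0.0907, adjusted p = 0.927). Since no loss was seen there, the groups are called libraries labelled Rxra cKO throughout. A count over the whole gene also includes exons that a recombined allele leaves in place, so it could not check the label. HFSC markers summed to 4610 to 4770 CPM in wild-type atRA+PKCi, 371 to 375 CPM in the libraries labelled Rxra cKO in atRA+PKCi and 103 to 137 CPM in the FBS libraries. The keratin Krt15 alone made up 4500 CPM and 248 CPM of the 2 atRA+PKCi sums. Of 8 tested HFSC markers, 2 were called higher and 2 lower in the libraries labelled Rxra cKO in atRA+PKCi. Markers of feeder cells or dermal fibroblasts summed to 4.39 to 7.45 CPM in wild-type atRA+PKCi, with 2 of 10 markers at 0. In the libraries labelled Rxra cKO in that medium they summed to 30.5 to 32.2 CPM, with 1 of 10 at 0. Vim (1.75 against 16.8 CPM) and Col5a1 (1.29 against 9.38 CPM) led this sum, while Col1a1 was at 1.09 against 1.84 CPM. The sums of other lists also differed between the genotypes in atRA+PKCi. Merkel cell markers were at 5.48 to 6.05 CPM in the wild-type and 31.7 to 35.4 CPM in the libraries labelled Rxra cKO. Immune markers were at 0.289 to 0.317 and 1.6 to 1.86 CPM, and epithelial keratinocyte markers at 16600 to 16700 and 25100 to 25200 CPM. In each group 2 of 8 Merkel cell and 2 of 6 immune markers were at 0. Few genes carried these sums. Krt8 was at 0.655 and 32.9 CPM, while Isl1 (2.71 and 0.0131 CPM) and Sox2 (2.12 and 0 CPM) went the other way. Cd74 was at 0.207 and 1.66 CPM, and Krt14 at 5850 and 11700 CPM. Of 4 tested Merkel cell markers 2 were called higher and 2 lower, and of 7 keratinocyte markers 2 higher and 3 lower. In bulk libraries, fewer cells of a type and less RNA per cell cannot be told apart, and the part of these marker levels in the differences below was not tested.

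The start regions of Nts, Aoc1, Wfdc18 and Ccdc33 are shown because Nts and Aoc1 differed most between the genotypes in opposite directions, Wfdc18 reached the highest level of the 10 in any cluster of skin cells, and Ccdc33 overlapped between the genotypes. Each is the 250 bases before a RefSeq start on GRCm38.p6, read 5′ to 3′ on the strand of the gene, with capitals for the letters of a retinoid receptor half-site on either strand, for TGACTCA or its reverse complement, or for TATAAA. The half-site searched was AGGTCA in one form, while AGTTCA was another form, GGGTCA was the third form and GGTTCA the last. The regions are chr10:102490419-102490668 on the minus strand for Nts, chr6:48895005-48895254 and chr6:48904736-48904985 on the plus strand for Aoc1, chr11:83708754-83709003 on the plus strand for Wfdc18 and chr9:58102298-58102547 on the minus strand for Ccdc33.
Nts: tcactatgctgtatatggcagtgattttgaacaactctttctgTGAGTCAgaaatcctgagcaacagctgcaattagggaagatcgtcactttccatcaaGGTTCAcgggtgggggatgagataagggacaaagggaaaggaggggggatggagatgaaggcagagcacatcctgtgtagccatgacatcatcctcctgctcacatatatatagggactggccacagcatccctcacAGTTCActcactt
Aoc1 upstream start: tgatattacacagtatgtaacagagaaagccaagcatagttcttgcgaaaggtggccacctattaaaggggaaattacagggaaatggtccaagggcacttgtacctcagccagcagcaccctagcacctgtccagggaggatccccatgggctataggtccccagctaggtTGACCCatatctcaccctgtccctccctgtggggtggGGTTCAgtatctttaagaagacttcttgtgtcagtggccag
Aoc1 downstream start: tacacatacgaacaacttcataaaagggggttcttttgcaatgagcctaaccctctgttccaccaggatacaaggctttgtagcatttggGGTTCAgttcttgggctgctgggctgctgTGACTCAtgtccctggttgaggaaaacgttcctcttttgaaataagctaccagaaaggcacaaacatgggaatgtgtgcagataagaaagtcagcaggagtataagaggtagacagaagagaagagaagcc
Wfdc18: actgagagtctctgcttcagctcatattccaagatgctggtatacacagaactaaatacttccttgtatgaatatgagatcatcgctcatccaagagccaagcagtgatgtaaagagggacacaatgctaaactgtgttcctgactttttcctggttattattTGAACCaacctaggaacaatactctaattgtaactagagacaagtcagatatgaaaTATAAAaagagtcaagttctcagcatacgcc
Ccdc33: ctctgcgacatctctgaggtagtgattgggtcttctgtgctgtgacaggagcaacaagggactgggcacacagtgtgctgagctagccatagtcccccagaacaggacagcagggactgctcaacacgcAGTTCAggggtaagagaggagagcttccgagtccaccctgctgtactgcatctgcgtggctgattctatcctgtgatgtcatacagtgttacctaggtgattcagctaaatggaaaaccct

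RefSeq start regions of 300 bases (250 before and 50 after the start) were at hand for 7 of the 10 genes, with 12 windows in all, and Lbp, Calcb and Rassf9 had no entry. A half-site was found in 10 of the 12 windows and in all 7 genes, and in 43.7% of the 32851 windows of all genes. The windows of Ccdc33 overlap and hold the same AGTTCA, which is counted in each. A gene can have several windows, and the share per gene over all genes was not computed. In the Nts region GGTTCA began at -150 and AGTTCA at -13 from the start, and TGAGTCA began at -207. The upstream Aoc1 start had TGACCC at -78 and GGTTCA at -41, and the downstream one had GGTTCA at -160 and TGACTCA at -131. TGACTCA occurred in 5.2% of all windows and in 2 of the 12. Wfdc18 alone held TATAAA on the gene strand, at -31, against 8.32% of all windows. Half-sites spaced by 5 bases, the arrangement in the Rarb start region (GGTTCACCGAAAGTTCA at -53), were in none of the 12 windows and in 0.0974% of all windows, and half-sites spaced by 2 bases were in none of the 12 and in 0.268% of all. A match says that the letters occur, not that a receptor binds, and which start these cultures used was not tested.

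The secreted peptides were first considered. Calcb (ENSMUSG00000030666, chr7:114718643-114723365, plus strand, GRCm38) encodes the beta form of calcitonin gene-related peptide, a vasodilator best known from sensory neurons. It had 1 and 1 counts in wild-type FBS, 909 and 822 counts (29.2 and 26 CPM) in wild-type atRA+PKCi, 27 and 45 counts (0.971 and 1.46 CPM) in the libraries labelled Rxra cKO in FBS and 281 and 223 counts (7.36 and 8.31 CPM) in those in atRA+PKCi. The wild-type atRA+PKCi pair was highest, the other atRA+PKCi pair came next, and no groups overlapped. From FBS to atRA+PKCi the ratio of group sums was 735 (95% counting interval 203 to 6070) in the wild-type and 6.32 (4.93 to 8.2) in the libraries labelled Rxra cKO. Within atRA+PKCi, Calcb was 3.53-fold lower in the libraries labelled Rxra cKO (log2 -1.82, SE 0.148, both libraries lower). Calcb shares 33 of its 1260 31-base words with Calca, so a small part of the estimated counts could be split between these genes.

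Nts (ENSMUSG00000019890, chr10:102481756-102490486, minus strand) encodes neurotensin, a peptide of gut endocrine cells and neurons. It was nearly silent in the wild-type, with 0 and 0 counts in FBS and 2 and 3 counts in atRA+PKCi. The libraries labelled Rxra cKO had 1 and 1 counts in FBS and 288 and 174 counts (7.54 and 6.48 CPM) in atRA+PKCi. Thus 1 of the 4 groups carried nearly all Nts counts, and its libraries lay far above the rest. The ratio between the media was 208 (57.4 to 1730) there, while in the wild-type the bound set by 3 counts was at least 1.42-fold. Within atRA+PKCi, Nts was 83.8-fold higher in the libraries labelled Rxra cKO (log2 6.39, SE 0.346).

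Next came the proteins that leave the cell. Wfdc18 (ENSMUSG00000000983, chr11:83709015-83711348, plus strand) encodes a small secreted protein with a whey acidic protein domain, the fold of several protease inhibitors. Its counts were 0 and 0 in wild-type FBS, 634 and 586 (20.3 and 18.6 CPM) in wild-type atRA+PKCi, 0 and 2 in the libraries labelled Rxra cKO in FBS and 43 and 53 (1.13 and 1.97 CPM) in those in atRA+PKCi. Only the wild-type atRA+PKCi pair had a level above 2 CPM. The rise from FBS was at least 345-fold in the wild-type and 43.3-fold (11.7 to 363) in the libraries labelled Rxra cKO. Within atRA+PKCi, Wfdc18 was 12.8-fold lower in the latter (log2 -3.68, SE 0.302).

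Aoc1 (ENSMUSG00000029811, chr6:48872896-48909188, plus strand) encodes diamine oxidase, which breaks down histamine and putrescine. It had 0 and 0 counts in wild-type FBS, 628 and 564 counts (20.1 and 17.9 CPM) in wild-type atRA+PKCi, 1 and 0 counts in the libraries labelled Rxra cKO in FBS and 10 and 4 counts (0.262 and 0.149 CPM) in those in atRA+PKCi. Aoc1 was thus abundant in 1 of the 4 groups, and the other 6 libraries had 10 counts or fewer. The rise was at least 337-fold in the wild-type and 12.6-fold (1.92 to 534) in the libraries labelled Rxra cKO. Within atRA+PKCi it was 87.3-fold lower in the latter (log2 -6.45, SE 0.303).

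Prelp (ENSMUSG00000041577, chr1:133910304-133921414, minus strand) encodes a small leucine-rich proteoglycan that anchors basement membrane to the connective tissue. Its counts were 0 and 0 in wild-type FBS, 314 and 330 (10.1 and 10.5 CPM) in wild-type atRA+PKCi, 0 and 2 in the libraries labelled Rxra cKO in FBS and 73 and 35 (1.91 and 1.3 CPM) in those in atRA+PKCi. Both atRA+PKCi groups stood above both FBS groups, and the wild-type one was highest. The rise was at least 182-fold in the wild-type and 48.7-fold (13.2 to 408) in the libraries labelled Rxra cKO, and within atRA+PKCi the latter were 6.31-fold lower (log2 -2.66, SE 0.311). Lbp (ENSMUSG00000016024, chr2:158306493-158332852, plus strand) encodes the lipopolysaccharide binding protein, which hands bacterial lipopolysaccharide to Cd14. It had 0 and 0 counts in wild-type FBS, 153 and 183 counts (4.91 and 5.8 CPM) in wild-type atRA+PKCi, 0 and 1 counts in the libraries labelled Rxra cKO in FBS and 89 and 47 counts (2.33 and 1.75 CPM) in those in atRA+PKCi. The wild-type atRA+PKCi pair was highest, and the other atRA+PKCi pair came next. Lbp rose at least 95.1-fold in the wild-type and 123-fold (21.7 to 4880) in the libraries labelled Rxra cKO. Within atRA+PKCi it was 2.61-fold lower in the libraries labelled Rxra cKO (log2 -1.38, SE 0.295).

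Of the proteins that stay in the cell, Prr5l (ENSMUSG00000032841, chr2:101714285-101883027, minus strand) binds the kinase complex mTORC2. It had 0 and 0 counts in wild-type FBS and 1029 and 1031 counts (33 and 32.7 CPM) in wild-type atRA+PKCi, the highest levels of the 10 genes. The libraries labelled Rxra cKO had 13 and 17 counts (0.468 and 0.551 CPM) in FBS and 318 and 199 counts (8.33 and 7.41 CPM) in atRA+PKCi. The order of the 4 groups was therefore that of Calcb, with a low level already present in FBS in the libraries labelled Rxra cKO. The rise was at least 583-fold in the wild-type and 15.6-fold (10.8 to 23.3) in the libraries labelled Rxra cKO. Within atRA+PKCi the latter were 4.16-fold lower (log2 -2.06, SE 0.113).

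Rassf9 (ENSMUSG00000044921, chr10:102512222-102549736, plus strand), a Ras-association domain protein that mice need for a normal epidermis, was highest in the libraries labelled Rxra cKO. It had 0 and 0 counts in wild-type FBS, 46 and 51 counts (1.48 and 1.62 CPM) in wild-type atRA+PKCi, 5 and 0 counts in the libraries labelled Rxra cKO in FBS and 274 and 194 counts (7.18 and 7.23 CPM) in those in atRA+PKCi. It rose in both genotypes, at least 27.5-fold in the wild-type and 84.5-fold (35.9 to 261) in the libraries labelled Rxra cKO. Within atRA+PKCi it was 4.65-fold higher in the latter (log2 2.22, SE 0.42). Rassf9 lies 21.7 kb from Nts on the opposite strand, and both were higher in the libraries labelled Rxra cKO.

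For Plekhb1 and Ccdc33 the atRA+PKCi libraries of the genotypes overlapped. Plekhb1 (ENSMUSG00000030701, chr7:100642892-100662414, minus strand), a membrane protein with a pleckstrin homology domain, had 0 and 0 counts in wild-type FBS, 108 and 88 counts (3.46 and 2.79 CPM) in wild-type atRA+PKCi, 4 and 4 counts in the libraries labelled Rxra cKO in FBS and 127 and 110 counts (3.33 and 4.1 CPM) in those in atRA+PKCi. The log2 difference between the genotypes in atRA+PKCi was 0.24, with a 95% interval from -0.33 to 0.82. Its rise was at least 55.5-fold in the wild-type and 26.7-fold (13.3 to 62.6) in the libraries labelled Rxra cKO. Ccdc33 (ENSMUSG00000037716, chr9:58028677-58118823, minus strand), a coiled-coil protein known mainly from testis, had 1 and 2 counts in wild-type FBS, 289 and 285 counts (9.27 and 9.03 CPM) in wild-type atRA+PKCi, 4 and 4 counts in the libraries labelled Rxra cKO in FBS and 432 and 245 counts (11.3 and 9.13 CPM) in those in atRA+PKCi. Here the log2 difference between the genotypes in atRA+PKCi was 0.16 (95% interval -0.2 to 0.52). The ratio between the media was 162 (55.3 to 790) in the wild-type and 76.4 (38.5 to 178) in the libraries labelled Rxra cKO. Stra6, which takes up retinol and rose in atRA+PKCi as well, overlaps the Ccdc33 gene body by 55036 bases on the opposite strand with 0 shared exonic bases, and the strand setting of the counting is not given in the sources used here.

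**Figure D1:**
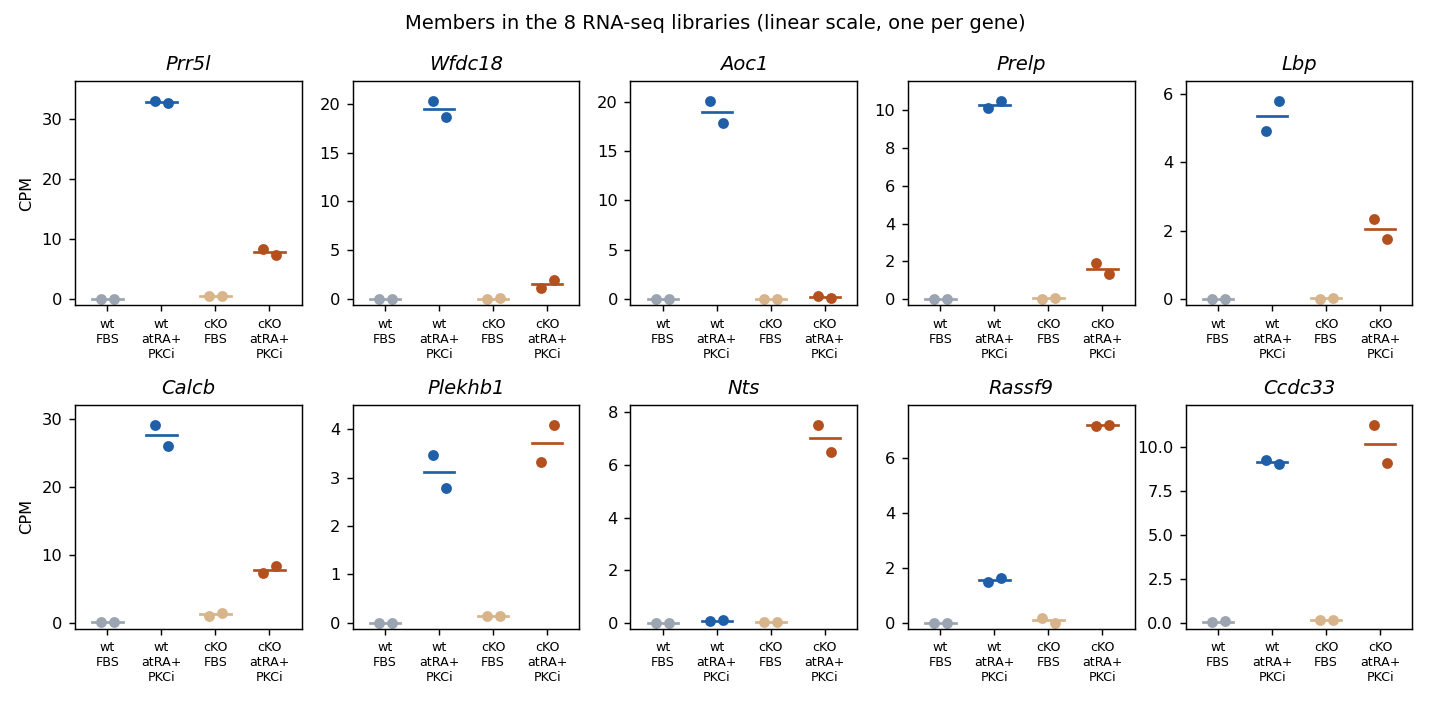
Level of each of the 10 genes in CPM (y axis, linear, with its own scale per panel) in the 8 bulk libraries, grouped along the x axis by genotype and medium, with 1 point per library and a bar at the group mean. Wild-type atRA+PKCi is highest for Prr5l, Wfdc18, Aoc1, Prelp, Lbp and Calcb, and the libraries labelled Rxra cKO in atRA+PKCi are highest for Nts and Rassf9.

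Per kilobase of exon, which allows genes to be compared, Calcb led in wild-type atRA+PKCi at 21.8 CPM per kb, followed by Wfdc18 at 16, Prr5l at 6.6, Aoc1 at 5.84 and Prelp at 2.85. Ccdc33, Lbp, Plekhb1, Rassf9 and Nts followed at 1.71, 1.11, 0.843, 0.212 and 0.0638 CPM per kb. In the libraries labelled Rxra cKO in the same medium Calcb was again first at 6.19 CPM per kb, but Nts was second at 5.62, and Aoc1 was last at 0.063. Rassf9, with long exons, reached only 0.983 CPM per kb there. The genes were thus expressed at low to moderate levels, and the large ratios rest on FBS counts at or near 0.

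In atRA+PKCi, 20.2% of all 15965 tested genes were called lower and 23% higher in the libraries labelled Rxra cKO than in the wild-type. The 10 genes get no call here, since counts of both genotypes chose them, and their SEs and intervals describe spread only. The share of all genes whose libraries did not overlap between the genotypes was not computed. Their median log2 difference was -1.6, beside 0 over all tested genes. The atRA+PKCi libraries of both genotypes took part in picking the genes, so a gene picked for its level in 1 genotype is inclined to be lower in the other. The median fitted log2 change between the media, the measure that chose the genes, was 9.94 in the wild-type and 5.37 in the libraries labelled Rxra cKO, beside 0.03 and 0.02 over all genes. In FBS, near-absence from the wild-type was part of the choice, so a lower level in the libraries labelled Rxra cKO could not be seen. From the group sums, Prr5l was at least 9.08-fold higher there, Plekhb1 at least 2.42-fold, Rassf9 at least 1.51-fold and Calcb 32.7-fold (counting interval 8.73 to 275). Ccdc33 was 2.42-fold higher, with a wide interval from 0.581 to 14.2. Wfdc18, Aoc1, Prelp, Lbp and Nts had 1 or 2 counts there and 0 in the wild-type, too few for a fold.

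**Figure D2:**
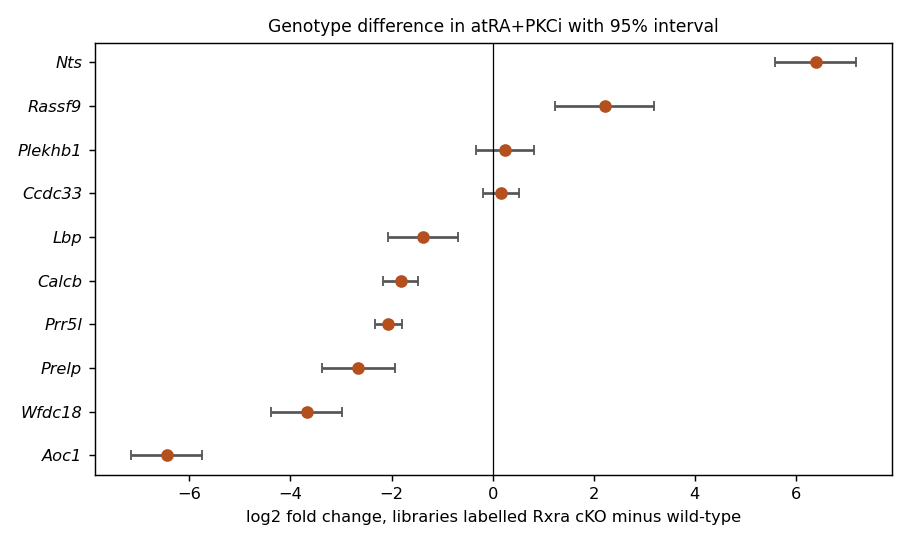
Log2 fold change of each gene in atRA+PKCi, libraries labelled Rxra cKO minus wild-type (x axis), with its 95% interval. The points run from -6.45 for Aoc1 to 6.39 for Nts, with Plekhb1 and Ccdc33 nearest 0. The intervals are a description, since these libraries took part in the choice of the genes.

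Other genes of the same families and pathways were then examined. In the retinoid response list, which holds known targets and carriers of retinoic acid, 7 of 10 tested genes (of 12 listed) rose and 2 fell in wild-type atRA+PKCi, with a median log2 change of 2.04 beside 0.03 over all genes. Of all tested genes, 27.2% rose and 26.6% fell in that contrast. In the libraries labelled Rxra cKO 4 rose and 2 fell (20.8% and 22.2% of all genes), with a median of 0.89. Dhrs3, which returns retinal to retinol, was at 7.88 and 6.53 CPM in wild-type FBS, 191 and 183 CPM in wild-type atRA+PKCi, 11.9 and 13.3 CPM in the libraries labelled Rxra cKO in FBS and 83.8 and 84.9 CPM in those in atRA+PKCi. Its rise was 4.69 (adjusted p = 1.1e-08, edgeR) and 2.74 (adjusted p = 2.93e-07) on the log2 scale. Tgm2, a transglutaminase, rose by 2.05 and 1.41, and Stra6 by 2.03 and 1.75. Rarb, a receptor gene with a well-known response element, rose by 2.54 (adjusted p = 0.0439) in the wild-type, while the 1.71 in the libraries labelled Rxra cKO did not pass (adjusted p = 0.0509). Dhrs3, Tgm2 and Stra6 were each lower in the libraries labelled Rxra cKO in atRA+PKCi, with log2 differences of -1.15, -0.77 and -0.31 (adjusted p from 1.06e-05 for Dhrs3 to 0.0184 for Stra6).

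Among calcitonin and neurotensin peptides, receptors and processing proteins, 2 of 9 tested genes (of 16 listed) rose and 5 fell in wild-type atRA+PKCi, with a median of -0.56. Ramp1, a subunit of the CGRP receptor, rose by 2.01 in the wild-type (adjusted p = 4.93e-05, edgeR) and by 1.32 in the libraries labelled Rxra cKO (adjusted p = 0.000788). Of the other receptor genes in this list, Calcr, Ntsr1 and Ntsr2 had 0 counts in all groups. Calcrl was near 0, with 4 and 5 counts in wild-type FBS and atRA+PKCi and 17 and 16 in the libraries labelled Rxra cKO. Sort1, a receptor that binds neurotensin, fell by 1.95 in the wild-type (adjusted p = 2.17e-05) and had a log2 change of 0.26 in the libraries labelled Rxra cKO (adjusted p = 0.216). In histamine and polyamine metabolism, the pathways of Aoc1, 4 of 9 tested genes (of 13) rose and 3 fell, with a median of 0.09. Odc1, which makes putrescine, fell by 4.38 in the wild-type and by 3.96 in the libraries labelled Rxra cKO (adjusted p = 1.38e-08 and 7.43e-08), the direction opposite to that of Aoc1.

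Of the WAP-domain proteins other than Wfdc18, 4 of the 15 listed had enough counts to test, and 3 of these fell in each genotype, with medians of -6.85 and -3.82 over the 4. Slpi, a secreted inhibitor of neutrophil elastase, fell by 4.17 and 3.96, and Wfdc5 fell by 11.44 in the wild-type and by 3.68 in the libraries labelled Rxra cKO (adjusted p from 3.88e-08 to 3.55e-06, edgeR). Of the small leucine-rich proteoglycans, 2 of 5 tested genes (of 13) rose with Prelp and 1 fell in the wild-type, with a median of 2.12. Podn rose by 5.55 in the wild-type (adjusted p = 0.000271) and by 2.36 in the libraries labelled Rxra cKO (adjusted p = 0.00408). Fmod rose in the wild-type alone by the test (adjusted p = 0.00158, against 0.748 in the libraries labelled Rxra cKO), a difference between the genotypes' changes that was not called (adjusted p = 0.13, with 24.6% of all tested genes called in that test). For lipopolysaccharide recognition, the setting of Lbp, 3 of 8 tested genes (of 10) rose and 3 fell, with a median of -0.13.

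Of mTORC2 subunits and substrates, around Prr5l, 2 of 10 rose and 4 fell in the wild-type, with a median of -0.02. Prkca, a protein kinase C that mTORC2 phosphorylates and that PKCi targets, fell by 1.32 in the wild-type (adjusted p = 4.08e-06, edgeR) and by 0.59 in the libraries labelled Rxra cKO (adjusted p = 0.000847). In the RASSF family and its MST kinases 3 of 12 rose and 6 fell, with a median of -0.21. Rassf4 followed Rassf9 in direction, with a rise of 4.32 in the wild-type and 5.01 in the libraries labelled Rxra cKO (adjusted p = 0.000927 and 8.02e-05) and a level 2.6 higher on the log2 scale in the latter in atRA+PKCi (adjusted p = 0.000945). Rassf10, another member, rose by 1.75 and 1.78 but was lower in the libraries labelled Rxra cKO, by -1.26 (adjusted p = 6.72e-06). HFSC markers were split, with 3 of 8 tested genes (of 10) rising and 3 falling in the wild-type at a median of -0.39. The summed rise given above thus rests mostly on Krt15. Krt15, a keratin of HFSCs, rose by 10.07 in the wild-type (adjusted p = 6.16e-09) and by 5.07 in the libraries labelled Rxra cKO (adjusted p = 8.72e-08). Its level in atRA+PKCi was lower in the latter by -4.18 (adjusted p = 1.15e-07).

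The genes within 100 kb of the 10 were examined next. Of 86 annotated genes 24 could be tested, and 14 rose and 2 fell in wild-type atRA+PKCi, against the 27.2% and 26.6% of all genes given above. In the libraries labelled Rxra cKO 13 rose and 3 fell. Near Calcb, Insc, which orients the mitotic spindle and lies 20.3 kb away, rose in the wild-type from 0 counts to 267, at least 75.6-fold (adjusted p = 2.38e-05, edgeR), and in the libraries labelled Rxra cKO from 0 counts to 75, at least 22.6-fold ( adjusted p = 0.000198). Calca, 82.3 kb from Calcb, had 0 and 87 counts in the wild-type media and 0 and 6 in those of the libraries labelled Rxra cKO, at least 24.6-fold more in the former (adjusted p = 0.000649) and not called in the latter (adjusted p = 0.0575).

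Near Aoc1, the membrane proteins Tmem176a and Tmem176b (25.8 and 31.4 kb away) rose by 4.14 and 4.03 in the wild-type and by 1.64 and 1.3 in the libraries labelled Rxra cKO. In atRA+PKCi their level in the latter was not lower, with log2 differences of 0.14 (adjusted p = 0.262, edgeR) and 0.34 (adjusted p = 0.00351), whereas Aoc1 was 87.3-fold lower. Around Ccdc33, Stra6 rose as given above, and Islr, 37.4 kb away, had 0 and 61 counts in the wild-type media, at least 17.3-fold more in atRA+PKCi (adjusted p = 0.000397). Sema7a, a membrane-bound semaphorin 65.8 kb from Ccdc33, went the other way, with 634 and 1 counts in the wild-type and 778 and 49 in the libraries labelled Rxra cKO, and fell by 9.21 and 4.13 on the log2 scale (adjusted p = 6.7e-07 and 6.92e-06). No gene near Prelp, and none but each other near Nts and Rassf9, could be tested.

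**Figure D3:**
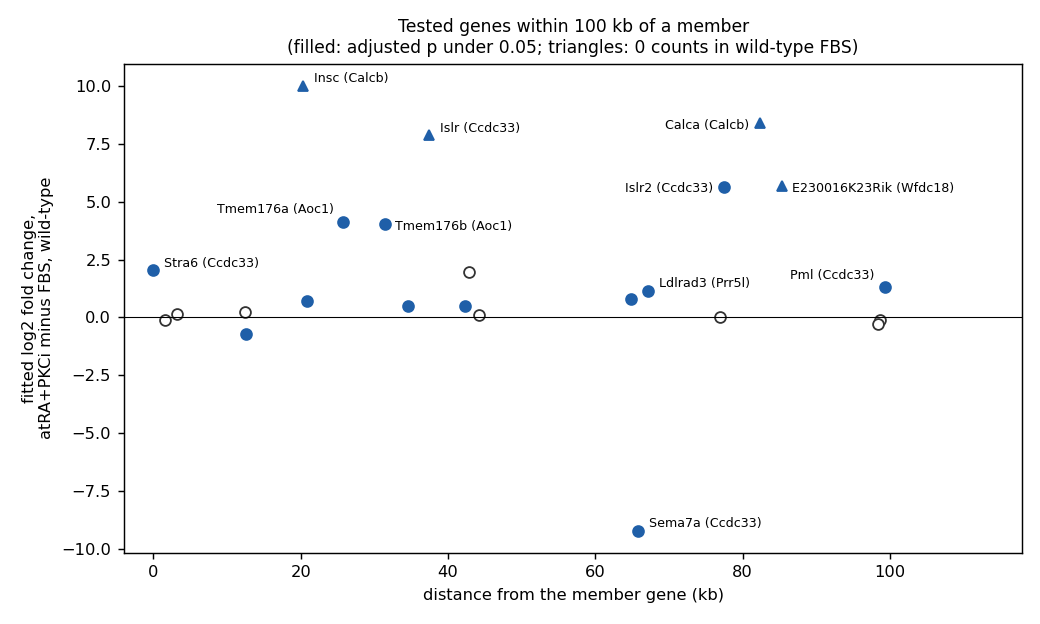
Fitted log2 fold change from FBS to atRA+PKCi in the wild-type (y axis) of the 24 tested genes within 100 kb, against their distance from the gene of the set in kb (x axis), with that gene in brackets. Filled symbols passed an adjusted p of 0.05, and triangles had 0 counts in wild-type FBS, so their height is no bound. Of the 24 genes, 14 lie above 0 and filled, with Insc and Calca near Calcb among the highest, and Sema7a near Ccdc33 is lowest.

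In the hashtagged cultures, matrices of 449 and 208 barcodes left 222 and 78 single cells of known condition, and no barcode was shared between the mice. FBS had 0 cells in both mice and atRA+PKCi alone had 2 cells and 1 cell, so the contrast that picked the genes could not be repeated there. B-27 had 5 and 10 cells, Rspo (R-spondin with atRA+PKCi) 5 and 6, BMP2/4 (with atRA+PKCi) 113 and 13, Rspo+BMP2/4 92 and 27, and Rspo+BMP2/4 with the RAR inhibitor RARi 5 and 21. Wfdc18 was the only one of the 10 genes to pass the filter on low counts in sums per mouse and condition. In B-27 it had 2 UMIs in each mouse (10.6 and 9.1 CPM), in BMP2/4 120 and 11 UMIs (32.5 and 21.5 CPM), in Rspo+BMP2/4 181 and 4 UMIs (69.5 and 5.62 CPM) and with RARi 1 and 5 UMIs (10.4 and 8.3 CPM). Mouse 1 was above B-27 in both BMP conditions, but mouse 2 was below it in Rspo+BMP2/4. The 181 UMIs of mouse 1 came from 30 of 92 cells, with up to 68 in 1 cell, and the 120 in BMP2/4 from 42 of 113 cells.

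By the edgeR quasi-likelihood test, Wfdc18 was not called in any of the 4 comparisons. The log2 difference was 1.67 for BMP2/4 against B-27 (95% interval -0.62 to 3.97, adjusted p = 0.359), where 1.53% of 6265 tested genes were called higher, 8.84% lower and 10.4% in either direction. It was 2.22 for Rspo+BMP2/4 against B-27 (0.03 to 4.41, adjusted p = 0.227), with 1.64% called higher, 7.61% lower and 9.26% in either direction. Rspo+BMP2/4 against BMP2/4 gave 0.55 (-0.72 to 1.82, adjusted p = 1) and RARi added to Rspo+BMP2/4 gave -2.43 (-4.43 to -0.43, adjusted p = 0.959), with 0 genes called among the 6265, 44 and 232 genes at an unadjusted p under 0.05, and 0 called with DESeq2. Without mouse 1 the Wfdc18 differences were -0.61 for Rspo+BMP2/4 against B-27, -1.77 for Rspo+BMP2/4 against BMP2/4 and 0.49 for RARi, so the direction of these 3 rests on that mouse.

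The other genes had few UMIs in culture. Calcb had 3 and 0 UMIs in B-27, 1 and 3 (7.3 and 20.6 CPM) in Rspo, 16 and 9 (4.33 and 17.6 CPM) in BMP2/4, 22 and 9 (8.45 and 12.6 CPM) in Rspo+BMP2/4 and 0 and 1 (0 and 1.66 CPM) with RARi. Prelp had 6 and 1 UMIs in BMP2/4, 11 and 4 in Rspo+BMP2/4 and 0 in all other conditions. Plekhb1 had 13 and 2 UMIs in BMP2/4 and 3 and 1 in Rspo+BMP2/4. For Calcb in mouse 2, the RARi value has an exact upper limit of 9.25 CPM. Its intervals were 8.06 to 33.4 CPM in BMP2/4 and 5.78 to 24 CPM in Rspo+BMP2/4, which cover counting error only. In mouse 1 the RARi sum of 96141 UMIs allowed up to 38.4 CPM. With mitochondrial UMIs under 20%, Calcb with RARi in mouse 1 had 6 UMIs over 10 cells, 26.7 CPM (9.82 to 58.2). That was above its 5.14 CPM in BMP2/4 and 8.89 CPM in Rspo+BMP2/4. In mouse 2 under that limit, Calcb was at 1.29 CPM with RARi, below its 16.7 and 16.9 CPM, so the mice differed in direction. With the main cell filter, Lbp had 3 UMIs in 1 of the 2 atRA+PKCi cells of mouse 1, Aoc1 had 1 UMI in all cells, and Nts had none.

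**Figure D4:**
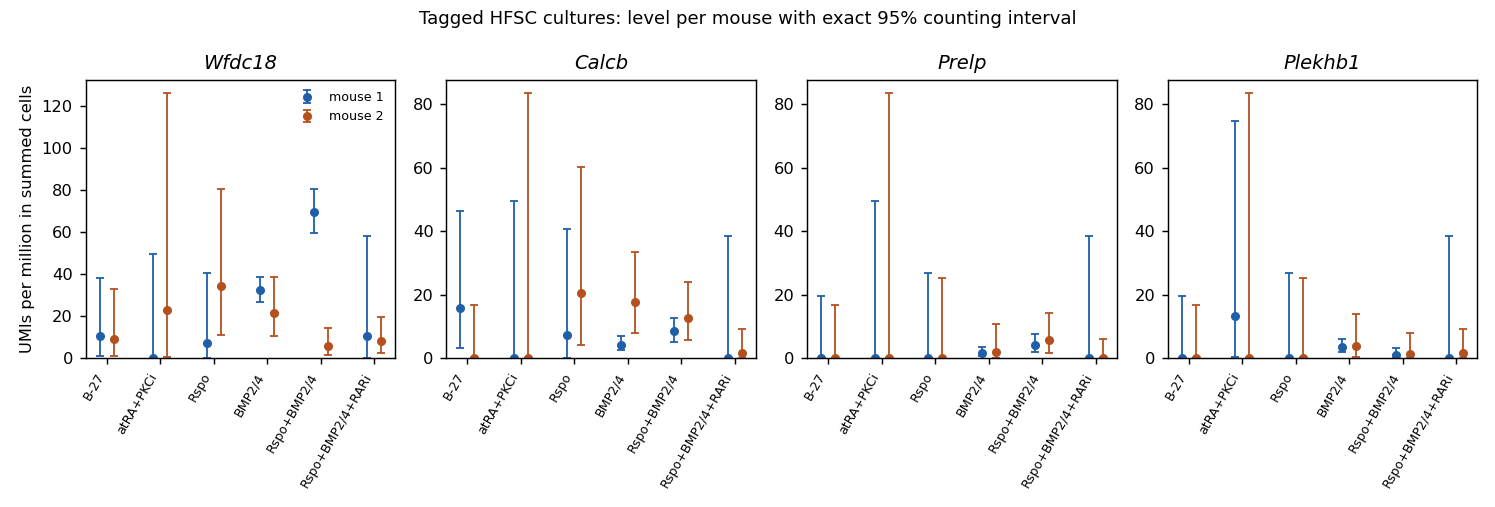
CPM of UMIs (y axis) of the genes with most UMIs in sums of cells per condition (x axis) of the hashtagged cultures, 1 point per mouse with its exact 95% counting interval. Wfdc18 in mouse 1 is highest in Rspo+BMP2/4 (69.5) and in mouse 2 in Rspo (34.4, from 5 UMIs), and most other intervals are wide.

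In skin at postnatal day 32 the 10 genes were followed over cell clusters. Of 16521 and 16068 barcodes, 13625 and 13608 cells were kept (medians of 8671 and 10463.5 UMIs), with 62 barcodes shared between the matrices, and fell into 36 clusters. Clusters were named X-like from marker lists, and levels in them are a description, since they were built from the same cells. Dermal fibroblast-like, immune-like and endothelial-like clusters were present although the sort was meant to remove such cells. The cluster with the highest Krt15 (10000 and 4630 CPM in mouse 1 and mouse 2), which had Cd34 at 192 and 164 CPM, stayed unnamed, and Krt15 was also at 3770 and 3350 CPM in the suprabasal epidermis-like cluster and at 2060 to 3240 CPM in each of 2 outer root sheath-like ones. The unnamed Krt15-high cluster, of 89 and 60 cells, held 0 UMIs of Aoc1, Calcb, Nts and Ccdc33 in both mice and 0 and 1 of Wfdc18. At its depth, 0 UMIs over both mice allow up to 3.59 CPM. That limit lies above the highest level of Calcb (1.75 CPM) and Ccdc33 (0.381 CPM) in any cell group, so their absence there could not be shown. It held 5 and 4 UMIs of Prr5l (9.8 and 7.73 CPM), 11 and 8 of Prelp (21.6 and 15.5 CPM), 5 and 3 of Lbp (9.8 and 5.8 CPM), 1 and 1 of Plekhb1 and 16 and 31 of Rassf9 (31.4 and 59.9 CPM).

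Among the genes lower in the libraries labelled Rxra cKO, Prr5l was highest in the hair shaft medulla-like cluster, at 312 and 354 CPM in mouse 1 and mouse 2, which held 40.2% of its UMIs. Hair shaft cortex-like cells followed at 123 and 114 CPM and a hair matrix-like cluster at 112 and 84.5 CPM, so the leading clusters of Prr5l were those of hair shaft and matrix. Calcb was rare, with 18 UMIs in each mouse, and 63.9% of them lay in the same medulla-like cluster (2.27 and 1.14 CPM). Wfdc18 stood at 2940 and 2510 CPM in an unnamed cluster of 81 and 56 cells that led with the milk protein genes Csn3, Csn1s1 and Lalba, and this cluster held 81.5% of its UMIs. An outer root sheath-like cluster came next at 80.8 and 61.2 CPM, in which 23.4% and 21% of cells had a UMI, against 0.329% and 0.673% of suprabasal epidermis-like cells. Of the 79 and 24 UMIs of Aoc1, 89.3% lay in an unnamed cluster led by Areg, Wfdc2, Krt18, Krt8 and Aqp5, at 59.5 and 20.6 CPM.

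Prelp and Lbp were highest in mesenchymal clusters. Prelp was highest in a mural or dermal sheath-like cluster (473 and 435 CPM) and in a dermal fibroblast-like one (248 and 282 CPM). Lbp was highest in dermal fibroblast-like clusters, at 426 and 218 CPM in the same one and at 332 and 86.2 CPM in another, of which mouse 2 had only 23 cells. Both genes were lower in the libraries labelled Rxra cKO in atRA+PKCi. The part of feeder cells or fibroblasts in their bulk levels was not tested.

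Plekhb1, which overlapped between the genotypes in atRA+PKCi, was highest in an unnamed cluster at 99.1 and 69.3 CPM with 43.6% of its UMIs. That cluster was led by Il17b, Lama1 and Mia and combined Acta2 (5130 and 4460 CPM) with the basal keratins Krt14 (490 and 304 CPM) and Krt5 (351 and 253 CPM). Schwann-like cells followed at 48.7 and 75.2 CPM and the milk protein cluster at 53.9 and 25.3 CPM. Ccdc33 had 30 and 36 UMIs and no cluster above 1 CPM over both mice.

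Rassf9 and Nts, both higher in the libraries labelled Rxra cKO in atRA+PKCi, differed in skin. Rassf9 was spread over hair matrix-like cells (168 and 177 CPM in one cluster, 130 and 136 CPM in another) and a suprabasal epidermis-like cluster led by Cst6, Krt79 and Defb6 (168 and 132 CPM), whose score for upper hair follicle markers was nearly as high. Nts reached 53.5 and 24.2 CPM in endothelial-like cells, but its 19 UMIs in mouse 1 came from 1 cell, and it had 3.7 and 0.996 CPM in a hair matrix-like cluster. Their leading clusters were thus different, although the genes are neighbors on chromosome 10.

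**Figure D5:**
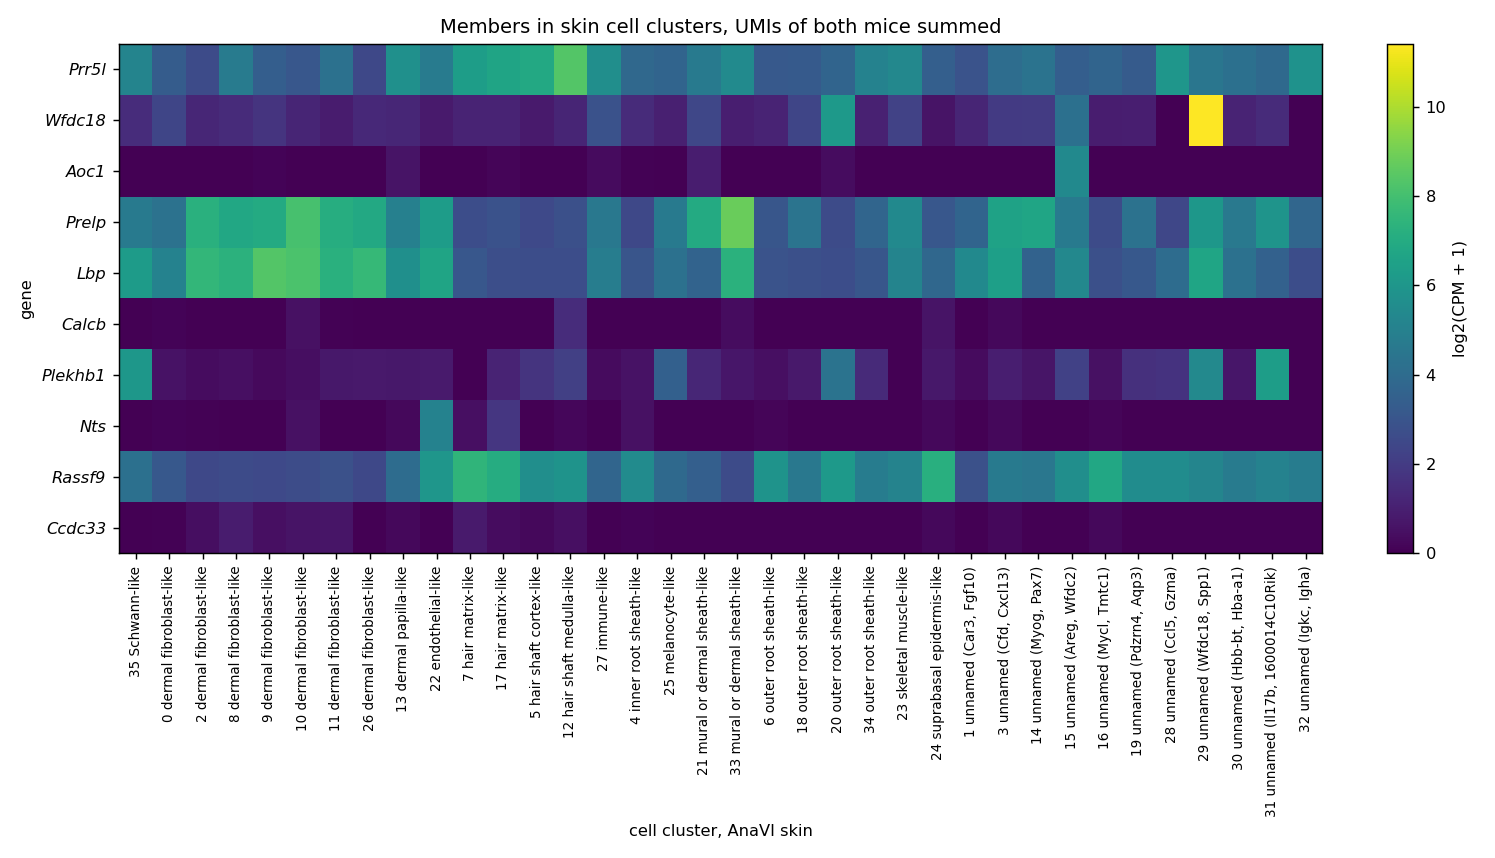
Level of the 10 genes (rows) in the 36 clusters of AnaVI skin (columns, with their X-like names or leading genes), as log2(CPM + 1) of the UMIs of both mice summed. Wfdc18 and Aoc1 have 1 bright cluster each, Prr5l and Rassf9 are brightest in hair lineage clusters, Prelp and Lbp in mesenchymal ones, and Calcb and Ccdc33 are dark throughout.

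Over the 36 clusters, the genes whose levels followed each of the set most closely among 12612 genes were found by Pearson's r of log2(CPM + 1), as a description, since clusters share libraries and depth. For Prr5l these were Jakmip2 (r = 0.839), Lef1 (0.812) and Odc1 (0.79), which fell in atRA+PKCi while Prr5l rose. For Wfdc18 they were Ceacam10 (0.857) and the milk protein genes Lalba and Csn1s2a (both 0.854). Lbp was followed by Scara5 (0.925), Nox4 (0.902) and Ogn (0.896), Prelp by C1qtnf2 (0.861), Jdp2 (0.854) and Sulf1 (0.852), and Plekhb1 by Sox10 (0.841), Rap1gap (0.819) and Rnf128 (0.808). Rassf9 was most like Esrp1 (0.896), Cdca7 (0.885) and Sinhcaf (0.884). Nts was most like Dipk2b (0.941), Tie1 (0.939) and Nr5a2 (0.938), and Aoc1 like Cyp3a57 (0.983), Fgb (0.978) and 9530014B07Rik (0.978), but these 2 rest on 1 cluster each, and the nearest gene to Ccdc33, Wnt10b, reached only 0.645.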

How the data were processed

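The bulk table that the authors deposited holds estimated counts by gene, unnormalized, from Salmon 1.4.0 with tximport on mm10. The authors also deposited a normalized signal for each gene and library, of which only alternatives made use. Single cell matrices that the authors deposited hold whole UMI counts from Cell Ranger (7.0.1 in their processing notes, 7.0.0 in the matrix header), before removal of free RNA or doublets. ATAC-seq and CUT&RUN samples were not analysed here, and no comparison columns were used.

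After rounding, the estimated counts entered the quasi-likelihood test of edgeR 4.0.16 (R 4.3.3) with TMM factors, the filterByExpr filter and 1 mean for each of 4 groups of libraries. Calls were made at a Benjamini-Hochberg adjusted p under 0.05. CPM are per TMM-normalized library. The p-values measure the spread between 2 mice per genotype. Ratios of sums have exact 95% counting intervals, and 3 counts over the group stand in for a group at 0. Intervals and floors cover counting error only. On simulated data with these depths, changes of 1 on the log2 scale were recovered in 74% and changes of 2 in 96% of the altered genes for the genotype contrast in atRA+PKCi (15435 genes). For the RARi contrast of the cultures these shares were 2% and 37% (5437 genes). Altered genes were drawn only from those with a mean over 1 CPM in bulk, and over a higher floor in the cultures. The shares therefore do not cover rarer genes.

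Cells needed at least 500 genes, at least 1000 UMIs and a mitochondrial share under 10%. HTODemux of Seurat 5.3.0 assigned hashtags (quantile 0.99) and Scrublet in scanpy 1.11.5 marked 833 and 307 skin cells as doublets (5.76% and 2.21%), which were left out. Conditions with at least 5 cells in each mouse were summed and tested with edgeR. Skin cells were clustered with 2000 variable genes, 30 principal components, 15 neighbors and Leiden resolution 1. A name needed a marker score of at least 1 and at least 3 markers in 10% of cells, and a non-epithelial name was dropped where Krt5, Krt14 and Col17a1 all exceeded 2 times the median cluster. Positions came from GENCODE (GRCm38) and start regions from RefSeq.

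Named genes are the 10 genes, Rxra, up to 4 called genes of largest change per pathway list, genes within 100 kb, and the 3 genes most alike over clusters. The 10 genes and the lists were chosen with earlier results of these data known. The labels give cultures of 1 mouse the same number in both media, so numbers pair libraries within a genotype. Between such libraries, departures from the group mean had a correlation of 0.0668 in the wild-type and -0.0188 in the libraries labelled Rxra cKO over 15965 genes. Alternatives were DESeq2 1.42.0, limma 3.58.1 on log2 of the normalized signal (pseudocount 1 or 0.5), no filter, a stricter threshold, the replicate block, each library left out, other cell filters, another hashtag call and other cluster resolutions. Figures were drawn with matplotlib 3.10.9 in Python 3.11.15.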

Additional observations from a re-analysis of the deposited data

Results flagged for a closer look

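For 9 of the 20 pathway genes and neighbors followed here, the change from FBS to atRA+PKCi differed between the wild-type and the libraries labelled Rxra cKO by an interaction term in edgeR (log2 change in the wild-type minus that in the libraries labelled Rxra cKO). Over all 15965 tested genes this term called 24.6%, and the followed genes were named mostly because they were called with a large change, so the count of 9 is not to be read against that share. The test was not applied to the 10 genes of the set, since this contrast chose them. Among retinoid genes, the rise was larger in the wild-type for Dhrs3 by 1.95 (adjusted p = 2.66e-05) and for Tgm2 by 0.64 (adjusted p = 0.00442). Next to Aoc1 the same held for Tmem176a, by 2.5 (adjusted p = 1.23e-05), and Tmem176b, by 2.72 (adjusted p = 2.01e-06). Of the genes called by this term, those that fell in both genotypes fell further in the wild-type. The difference was -7.76 for Wfdc5 (adjusted p = 5.99e-05), -5.09 for Sema7a (adjusted p = 0.00169), -0.72 for Prkca (adjusted p = 0.00381) and -0.43 for Odc1 (adjusted p = 0.0447). For Slpi, which also fell in both, the difference of -0.21 was not called (adjusted p = 0.454). Sort1, which fell in the wild-type and was not called in the libraries labelled Rxra cKO, differed by -2.21 (adjusted p = 0.000287).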

How the results depend on the processing

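For Prr5l, Wfdc18, Aoc1, Prelp, Lbp, Calcb, Nts and Rassf9, the direction of the genotype difference in atRA+PKCi stayed in the alternatives. These were DESeq2, no filter, the replicate block, each left-out library and limma on the deposited normalized values. The same libraries chose the genes, so a direction that stays is a description and no test. With limma, the differences of Plekhb1 in atRA+PKCi (-0.01 at both pseudocounts) and Ccdc33 in FBS (-0.79 and -0.83) turned. The cause was not tested.

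With adjusted p under 0.01 and a log2 change over 1, calls over all genes went from 8599 to 2960 (media, wild-type), 6861 to 1858 (media, libraries labelled Rxra cKO), 6895 to 2081 (genotypes, atRA+PKCi) and 6840 to 1761 (genotypes, FBS), and in the cultures from 650 to 358 (BMP2/4 against B-27) and from 580 to 350 (Rspo+BMP2/4 against B-27), since fewer genes can pass. Leaving out 1 library gave 7097 to 8459, 4543 to 7614, 4734 to 7572 and 5301 to 6657 calls in the same order, with 4543 without replicate 1 of the libraries labelled Rxra cKO in atRA+PKCi. With the replicate block the calls were 8470, 6671, 6904 and 6855, and in the cultures 586, 513, 0 and 0, and it turned no direction among the 10 genes.

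In the cultures, no filter gave 12 calls for Rspo+BMP2/4 against BMP2/4 and 9 for RARi, and Wfdc18 was then called for Rspo+BMP2/4 against B-27 (2.41, adjusted p = 0.0303). Mitochondrial UMIs under 20% gave 1056 calls for BMP2/4 against B-27 and 1 for Rspo+BMP2/4 against BMP2/4. Hashtags by share of counts gave 1128 and 877 calls against B-27 and 12 for RARi, and turned Wfdc18 between Rspo+BMP2/4 and BMP2/4 to -0.31. Leaving out 1 mouse gave Wfdc18 -0.61 to 2.61 for Rspo+BMP2/4 against B-27, -1.77 to 1.07 for Rspo+BMP2/4 against BMP2/4 and -2.63 to 0.49 for RARi. In skin, 8 to 10 of the 10 genes kept the cell group with the highest level, and 8 to 9 with 1 mouse left out, the exceptions being Ccdc33, Rassf9 and Plekhb1. Culture sums of few cells limit what can be seen of the rarer genes.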
